A study of Rattus norvegicus with 4 samples.

Results

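RNA polymerase I and the proteins that process ribosomal RNA were followed as 1 module of 39 genes in cultured rat cortical neurons infected with lentivirus carrying an shRNA against PHF6. The members were chosen by name, as subunits and factors of RNA polymerase I (Pol I) and as nucleolar and rRNA processing proteins, and not by their values. Of the 39, 37 had a probe set annotated to that gene alone, out of 17245 genes measured. Rrn3, the factor that brings Pol I to its promoter, shared its probe set with the neighbouring annotation Ntan1 and was left out, and Dkc1, the pseudouridine synthase of the box H/ACA particles, had no probe set of its own and was not analysed here.

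Neurons labelled as PHF6 knockdown carried pLL3.7 lentivirus with PHF6shRNA-2 (2 arrays), and neurons labelled wild type carried the same vector with a control shRNA (2 arrays). Both groups were primary cortical neurons of Sprague Dawley rats at embryonic day 18, collected 5 days after infection, with no other treatment. Only 1 hairpin against PHF6 was used, so loss of PHF6 and other effects of that hairpin cannot be told apart. The labels call the arrays biological duplicates, and the sample descriptions end in exp-1 or exp-2 in both groups, without saying whether these mark separate cultures or an experiment that both groups shared. The p-values measure the spread between these arrays, which may be technical, and the main test takes them as unpaired.

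Ribosomes begin in the nucleolus, where Pol I copies the rDNA repeats into a long precursor RNA that is then modified, cut and folded onto ribosomal proteins. Small nucleolar ribonucleoproteins (snoRNPs) guide the chemical modification, the small subunit processome frees the 18S rRNA, and a separate line of factors builds the large subunit. Neurons no longer divide but keep large nucleoli, which support dendrite growth and protein synthesis. PHF6 is a nuclear and nucleolar protein that has been reported to bind the rDNA factor UBF in cell lines, and the comparison asks whether the transcripts of this machinery differ when the PHF6 shRNA is present. Arrays of this kind measure the mRNAs of these proteins, not the rRNA they make.

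The arrays had median intensities of 41.3 to 41.6 with PHF6 shRNA and 40.9 to 41.7 with control shRNA. As a background level, the reading that 95% of 1272 olfactory or vomeronasal receptor genes stayed under on an array was used, and it lay at 42.6 and 36.3 intensity units on the PHF6 shRNA arrays and at 43.7 and 34.7 on the control arrays. Phf6 itself read 34.4 and 31.3 in the PHF6 shRNA arrays, against 32.8 and 34.3 in the control arrays, below background on all 4. Its difference of -0.03 ± 0.09 log2 units (SE, limma adjusted p = 0.98) therefore does not check the labels. All 8 neuronal markers were above background on at least 2 arrays, Tubb3 reading 1399 and 1484 with PHF6 shRNA against 1659 and 1692 with control shRNA. Of the markers of other cells, all 4 measured endothelial genes and 5 of 7 microglial genes were below background on every array. All 6 measured astrocyte, 5 progenitor and 9 cycling genes, and 4 of 6 oligodendrocyte lineage genes, were above background on at least 2 arrays. Of the 6 fibroblast genes, Dcn, Lum and Pdgfrb were below it on every array, while the collagen genes Col1a1 and Col1a2 were above it on 4 arrays and Col3a1 on 3. The 6 summed to 294 and 285 with PHF6 shRNA and to 283 and 271 with control shRNA, and all 6 read higher with PHF6 shRNA, with a median difference of 0.08 log2 units.

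No member passed the unpaired test, and 1 passed when the duplicate number was taken as a block. With limma over 17245 genes and Benjamini-Hochberg adjustment, 0 of 37 members had an adjusted p under 0.05, the same share as over all genes, 0%. With the block, 909 of all 17245 genes passed, and 1 of the 37 members, Polr1e (limma adjusted p = 0.021). At an unadjusted p under 0.05, 5 of the 37 (13.5%) stood out, against 10.8% of all genes tested, and all 5 were lower in the PHF6 shRNA arrays, where the share of all genes is 7.52%. None of the 37 was higher at that level, where the share of all genes is 3.28%. Among genes above background on at least 2 arrays, 4 of the 36 members (11.1%) had such a p, all lower. Of all 10367 such genes 17.2% had one, 1258 of them lower. The 5 of the 37 were Polr1e, Taf1b, Taf1a, Nolc1 and Ddx10, of which Taf1a was below background on every array. With PHF6 shRNA duplicate 1 left out the count was 1, and with PHF6 shRNA duplicate 2 left out it was 3. With control duplicate 2 left out it was 2, both of them higher in the PHF6 shRNA arrays. Cyclic loess gave 7, with 4 of them lower, quantile scaling gave 8, with 5 lower, and log2(intensity + 16) gave 8, with 7 lower. Over all 17245 genes these settings gave 1808, 1841 and 2058, with 53.5%, 58.0% and 72.8% of them lower. The block gave 10, with 9 lower, beside 3409 of all genes, 66.2% of them lower. A variance trend gave 3 members, beside 1586 of all genes. The filter on background gave 2 of 36 members, beside 1408 of 10367 genes. The members in these last 2 settings were all lower.

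The module as a whole read slightly lower in the PHF6 shRNA arrays. Of the 37 members 25 were lower and 12 higher, with a median difference of -0.08 log2 units (PHF6 shRNA minus control shRNA), beside -0.01 over all genes, of which 52.3% were lower. Genes above background on at least 2 arrays, 36 of the members among them, had a median of -0.04 over all such genes and -0.08 over the members, with 58.5% and 66.7% lower. No member differed by as much as 1.5-fold, the widest being 1.36-fold. The median shrank to -0.03 under cyclic loess scaling and to -0.05 under a further quantile normalization. Leaving out PHF6 shRNA duplicate 1 gave -0.03 and control duplicate 2 -0.04, while leaving out control duplicate 1 gave -0.16. All genes then had medians of -0.02, -0.02 and 0.00096, in that order. In bulk RNA, fewer cells of a type and less RNA per cell cannot be told apart.

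The arrays of a group did not always stand together. Both PHF6 shRNA arrays lay below both control arrays for 14 members (37.8%), beside 21.7% of all genes, and above both for 4 members (10.8%), beside 16% of all genes. The groups overlapped in the other 19 members. Among genes above background on at least 2 arrays, the share below both was 36.1% of the members and 29.5% of all such genes. The share above both was 11.1% and 15.4%. Control duplicate 2 gave the highest reading for 20 of the 37 members, and PHF6 shRNA duplicate 1 gave the lowest for 17. The same 2 arrays were the extremes over all genes. Summed intensities of all 17245 genes were 2.4269e+06 and 2.4751e+06 with PHF6 shRNA and 2.469e+06 and 2.6009e+06 with control shRNA. The part of this array-wide pattern in the members' counts was not tested. The array medians over the members were 6.60 and 6.72 log2 units with PHF6 shRNA and 6.69 and 6.91 with control shRNA, so PHF6 shRNA duplicate 2 stood above control duplicate 1.

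**Figure D1:**
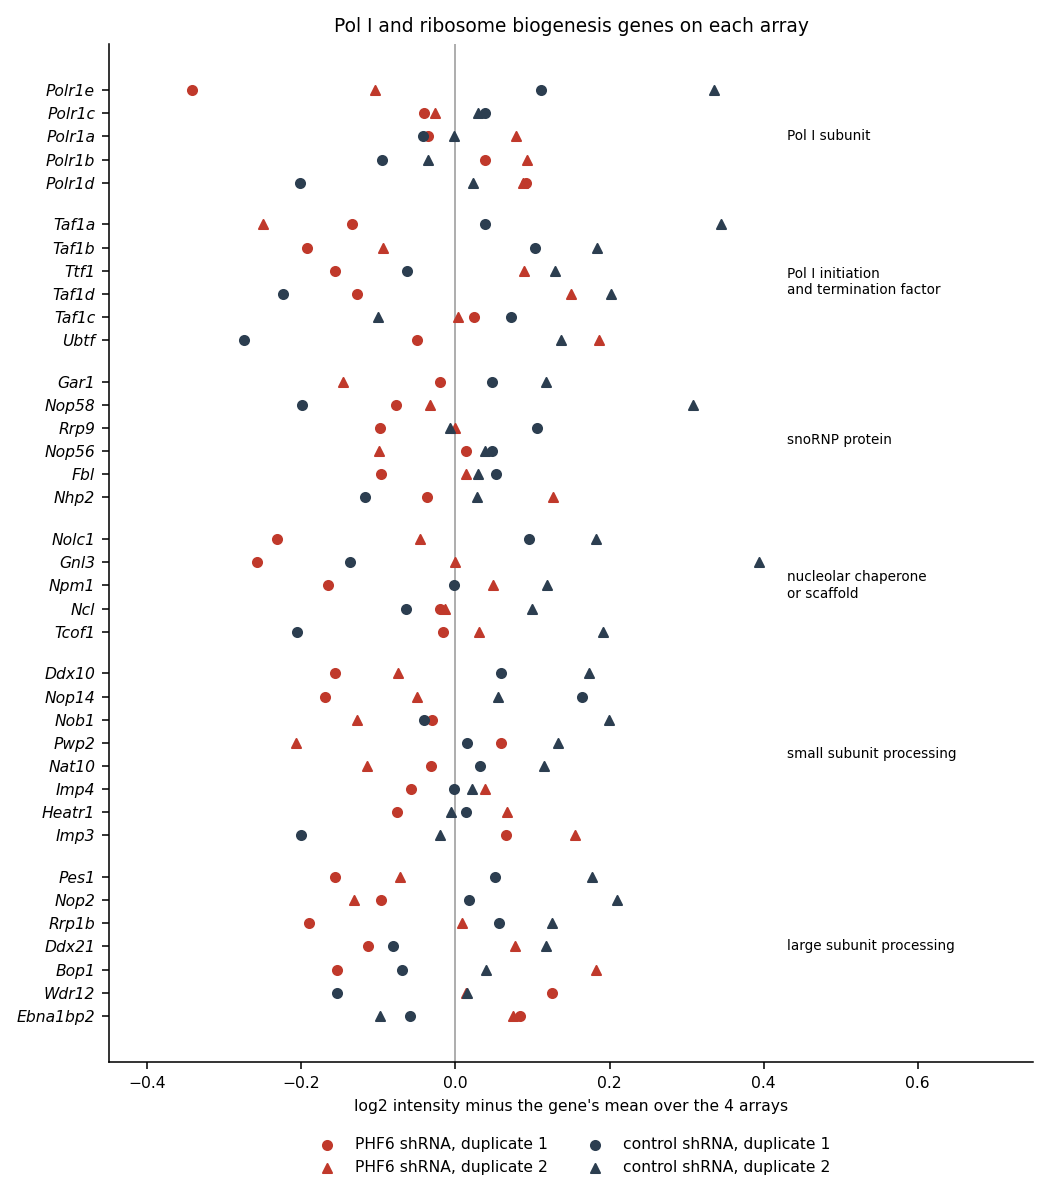
Each row is 1 measured member, grouped by step, and each point is 1 array (log2 intensity minus the gene's mean over the 4 arrays; red for PHF6 shRNA, dark for control shRNA, circles for duplicate 1, triangles for duplicate 2). Red points lie left of both dark points for 14 of the 37 members and right of both for 4.

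Some of the members' promoters hold known motifs, which the choice of members did not use. The 5 stretches printed here are the 150 bases before the transcription start of the Pol I subunit Polr1e, the SL1 subunit Taf1b, the scaffold Nolc1, the large subunit factor Pes1 and the methyltransferase Fbl. The first 4 were shown because they are the members of smallest p that hold 1 of the 2 motifs in this stretch, and Fbl as the textbook marker of the nucleolus. They are from RefSeq on GRCr8, plus strand, with CCGGAAG (the letters that ETS family factors read) or CACGTG (the E-box read by MYC and its relatives) in capitals on either strand.
Polr1e (chr5:64074973-64075122): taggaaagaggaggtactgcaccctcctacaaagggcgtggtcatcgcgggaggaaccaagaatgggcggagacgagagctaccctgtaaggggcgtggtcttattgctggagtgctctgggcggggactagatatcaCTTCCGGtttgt
Taf1b (chr6:46845902-46846051): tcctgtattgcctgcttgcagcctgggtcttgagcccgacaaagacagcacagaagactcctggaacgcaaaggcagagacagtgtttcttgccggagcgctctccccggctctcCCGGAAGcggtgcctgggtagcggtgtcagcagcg
Nolc1 (chr1:254870209-254870358): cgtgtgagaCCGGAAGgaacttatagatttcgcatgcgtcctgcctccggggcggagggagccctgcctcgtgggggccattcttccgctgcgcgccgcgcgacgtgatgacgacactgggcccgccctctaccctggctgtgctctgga
Pes1 (chr14:83074196-83074345): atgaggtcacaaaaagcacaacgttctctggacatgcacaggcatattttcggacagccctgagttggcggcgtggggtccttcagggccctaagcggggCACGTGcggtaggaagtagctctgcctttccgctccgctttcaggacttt
Fbl (chr1:92597257-92597406): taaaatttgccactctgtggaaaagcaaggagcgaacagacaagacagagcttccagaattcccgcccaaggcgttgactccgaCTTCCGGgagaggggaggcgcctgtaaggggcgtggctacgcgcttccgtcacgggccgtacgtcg

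Over the window of 250 bases before to 50 after the start, 37 of the 39 members had a RefSeq promoter, and 7 motifs were searched on both strands. CCGGAAG stood in 17 of the 37 (45.9%), beside 12.5% of the 14117 tested genes with a promoter there, and CACGTG in 7 (18.9%), beside 7.96%. The SP1 letters GGGCGG stood in 64.9% of the members, beside 49.3%, and the CCAAT box (CCAAT) in 24.3%, beside 37.7%. The NRF1 letters GCATGCGC stood in 8.11%, beside 3.79%, the TATA box (TATAAA) in 2.70%, beside 11.7%, and the YY1 letters AAGATGGCG in 0 of the 37, beside 2.65%. The windows held a median of 56.7% G and C in the members and 58% in the tested genes. The median difference between the groups was -0.08 log2 units for the 15 measured members with CCGGAAG and -0.06 for the 20 without it. These matches are descriptions of letters, with no test, and the motifs were chosen after the gene values had been seen.

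Pol I subunits went both ways. Polr1e encodes PAF53, a subunit that with its partner Polr1g helps Pol I start and move along the rDNA, and it gave the widest difference of the module. It read 74.1 and 87.3 intensity units in the PHF6 shRNA arrays, against 101 and 119 in the control arrays. Both PHF6 shRNA arrays lay below both control arrays, a difference of -0.45 ± 0.13 log2 units (SE), or 1.36-fold lower, with a limma adjusted p of 0.33 and an unadjusted p of 0.015. With the duplicate number as a block its limma adjusted p was 0.021, in a fit where 909 of all 17245 genes passed.

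The other 4 subunits gave smaller values. Polr1a, the largest subunit with the catalytic site, read 57.2 and 61.9 with PHF6 shRNA, against 56.9 and 58.5 with control shRNA, a difference of 0.04 ± 0.09 (limma adjusted p = 0.98). These ranges overlap. Polr1b, the second-largest subunit, differed by 0.13 ± 0.08, and Polr1c and Polr1d, which Pol III shares, by -0.07 ± 0.08 and 0.18 ± 0.10. Polr1d read 226 on both PHF6 shRNA arrays, against 185 and 216 in the control arrays. The step had a median of 0.04, which was -0.01 with PHF6 shRNA duplicate 2 left out and 0.10 with PHF6 shRNA duplicate 1 left out, and 0.02 with control duplicate 1 left out.

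The initiation factors held 2 of the 5 members with an unadjusted p under 0.05, both subunits of SL1, the complex that with TBP marks the rDNA promoter. Taf1b read 42.7 and 45.7 in the PHF6 shRNA arrays, against 52.4 and 55.4 in the control arrays, with no overlap. Its difference was -0.29 ± 0.09 log2 units, with a limma adjusted p of 0.36. The Taf1b reading on PHF6 shRNA duplicate 1 lay at the background level of that array, 42.6. Taf1a read 23.8 and 21.9 with PHF6 shRNA, against 26.8 and 33.2 with control shRNA, and was below background on all 4 arrays, so its difference of -0.38 ± 0.13 (limma adjusted p = 0.39) is one between readings at background.

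The remaining SL1 subunits and rDNA factors differed by less than their SE. Taf1c and Taf1d differed by 0.03 ± 0.10 and 0.02 ± 0.17. Ubtf, the HMG-box protein UBF that covers active rDNA, read 131 and 154 in the PHF6 shRNA arrays, against 112 and 149 in the control arrays. The groups overlapped, at 0.14 ± 0.16 log2 units (limma adjusted p = 0.92), and the 95% interval ran from -0.27 to 0.55. Ttf1, which stops Pol I at the end of the rRNA gene, differed by -0.07 ± 0.12 and was above background on 2 arrays. The 6 measured factors had a median of -0.02, which was 0.02 among those above background, 0.04 when PHF6 shRNA duplicate 1 was left out, -0.15 when PHF6 shRNA duplicate 2 was and -0.18 when control duplicate 1 was.

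**Figure D2:**
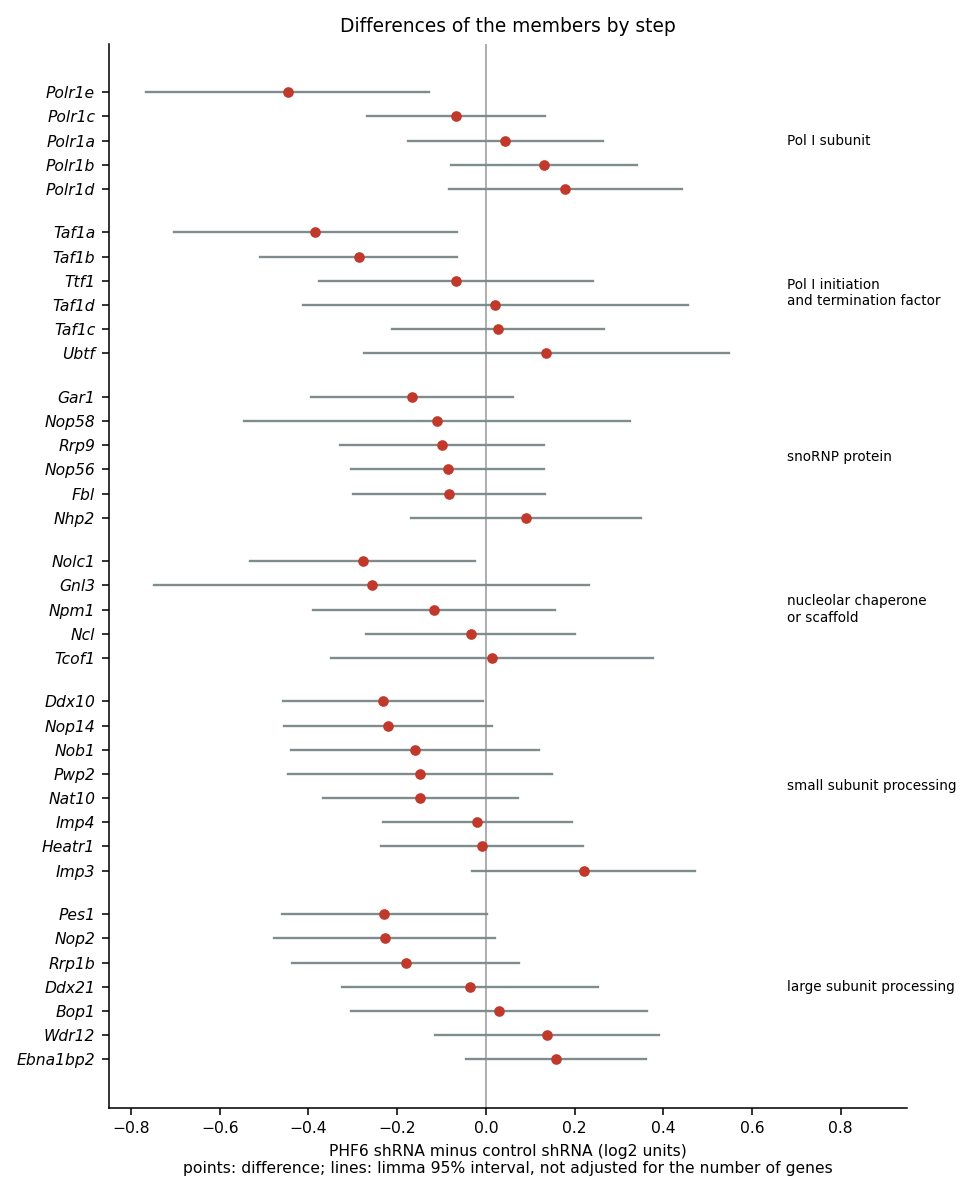
Each point is the PHF6 shRNA minus control shRNA difference of 1 member in log2 units and each line its limma 95% interval, not adjusted for the number of genes (2 arrays a group). The interval leaves out 0 for 5 members, Polr1e, Taf1a, Taf1b, Nolc1 and Ddx10, and reaches a 2-fold difference for none of the 37.

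Among snoRNP proteins 5 of 6 read lower; their median difference was -0.09, with -0.03 under cyclic loess and -0.05 under quantile scaling. Fbl, fibrillarin, the 2′-O-methyltransferase of the box C/D particles, read 111 and 119 in the PHF6 shRNA arrays, against 123 and 121 in the control arrays. The lowest control array was just above the highest PHF6 shRNA array, and the difference of -0.08 ± 0.09 was smaller than its error (limma adjusted p = 0.90). The core proteins Nop56 and Nop58 differed by -0.09 ± 0.09 and -0.11 ± 0.17, and Rrp9, which binds the U3 RNA, by -0.10 ± 0.09. In the box H/ACA particles, which guide pseudouridine formation, Gar1 read 61.5 and 56.4 with PHF6 shRNA, against 64.5 and 67.7 with control shRNA, without overlap. Its difference was -0.17 ± 0.09 (limma adjusted p = 0.63), while its partner Nhp2 differed by 0.09 ± 0.10.

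Of 5 nucleolar scaffold and chaperone genes 4 read lower, and their median difference was -0.12. It was 0.01 when control duplicate 2 was left out and -0.03 when PHF6 shRNA duplicate 1 was, against -0.22 when PHF6 shRNA duplicate 2 was and -0.19 when control duplicate 1 was. Cyclic loess gave -0.05 and quantile scaling -0.06. Nolc1, the phosphoprotein Nopp140 that carries snoRNPs, read 229 and 260.5 in the PHF6 shRNA arrays, against 287 and 305 in the control arrays. The groups did not overlap, and the difference was -0.28 ± 0.10 (limma adjusted p = 0.42). Ncl, nucleolin, an abundant nucleolar RNA-binding protein, read 739.5 and 743 with PHF6 shRNA, against 717 and 803 with control shRNA. Those values overlap, at -0.03 ± 0.09 (limma adjusted p = 0.98), and its second probe set gave 0.05.

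Npm1, the nucleolar chaperone nucleophosmin, read 314 and 364 in the PHF6 shRNA arrays, against 351 and 382 in the control arrays. The groups overlapped, at -0.12 ± 0.11 (limma adjusted p = 0.87). The 3 other probe sets that are annotated to Npm1 together with the pseudogene Npm1-ps9 gave between -0.04 and -0.03, so the copies cannot be told apart there. Gnl3, the nucleolar GTPase nucleostemin, read 79.3 and 94.7 with PHF6 shRNA, against 86.2 and 125 with control shRNA, a difference of -0.26 ± 0.20 that turned to 0.01 without control duplicate 2. Tcof1, treacle, the Pol I cofactor mutated in Treacher Collins syndrome, differed by 0.01 ± 0.15.

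Of 8 small subunit processing genes 7 read lower, and their median difference was -0.15. It was -0.06 with control duplicate 2 left out and -0.09 with PHF6 shRNA duplicate 2 left out. Ddx10, a DEAD-box helicase of early pre-rRNA processing, read 42.1 and 44.5 in the PHF6 shRNA arrays, against 48.9 and 52.9 in the control arrays. The groups did not overlap, and the difference was -0.23 ± 0.09 (limma adjusted p = 0.45), with 1 of the 4 arrays at or below background. Nop14, a processome scaffold, read 82.1 and 89.2 with PHF6 shRNA, against 103 and 96.0 with control shRNA, also without overlap, at -0.22 ± 0.09 (limma adjusted p = 0.49).

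Imp3 went the other way. This U3-associated protein read 256 and 273 in the PHF6 shRNA arrays, against 213 and 242 in the control arrays, a difference of 0.22 ± 0.10 (limma adjusted p = 0.54). Its companion Imp4, which sits beside it in the same subcomplex, differed by -0.02 ± 0.08. Nat10, the rRNA acetyltransferase, and Nob1, the endonuclease that makes the end of 18S rRNA, differed by -0.15 ± 0.09 and -0.16 ± 0.11. Pwp2, a processome protein named in yeast, differed by -0.15 ± 0.12 and Heatr1 by -0.01 ± 0.09.

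Of 7 large subunit processing genes 4 read lower, and their median difference of -0.04 turned to 0.02 under quantile scaling and to 0.04 under cyclic loess. It was 0.06 when control duplicate 2 or PHF6 shRNA duplicate 1 was left out and -0.14 when either of the other arrays was. Pes1, Bop1 and Wdr12 form the PeBoW complex, and their values lay on both sides of 0. Pes1 read 105 and 111 in the PHF6 shRNA arrays, against 121 and 132 in the control arrays, without overlap (-0.23 ± 0.09, limma adjusted p = 0.47). Bop1 differed by 0.03 ± 0.13 and Wdr12 by 0.14 ± 0.10, and both overlapped between the groups. The differences between these genes were not tested.

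Nop2, a methyltransferase of the large rRNA, read 225 and 219.8 with PHF6 shRNA, against 244 and 278 with control shRNA, a difference of -0.23 ± 0.10 (limma adjusted p = 0.51) without overlap. Ebna1bp2, the relative of yeast EBP2, read 204 and 203 in the PHF6 shRNA arrays, against 185 and 180.2 in the control arrays. Those pairs are tight and do not overlap, at 0.16 ± 0.08 (limma adjusted p = 0.60). Rrp1b, a nucleolar protein that also acts with chromatin, read 59.7 and 68.6 with PHF6 shRNA, against 70.9 and 74.3 with control shRNA (-0.18 ± 0.10, limma adjusted p = 0.65). Ddx21, a helicase that acts on rRNA genes and on pre-rRNA, differed by -0.04 ± 0.11, and its second probe set by -0.01.

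With 2 arrays a group, their number limits the precision. The SE of a member's difference had a median of 0.10 log2 units. Over the 37 members the unadjusted 95% intervals ran no lower than -0.77 (Polr1e) and no higher than 0.55 (Ubtf), so 0 of 37 reached a 2-fold difference in either direction. RMA compresses dim probe sets, and 32 of the 37 members were above background on all 4 arrays, 4 on some and Taf1a on none.

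**Figure D3:**
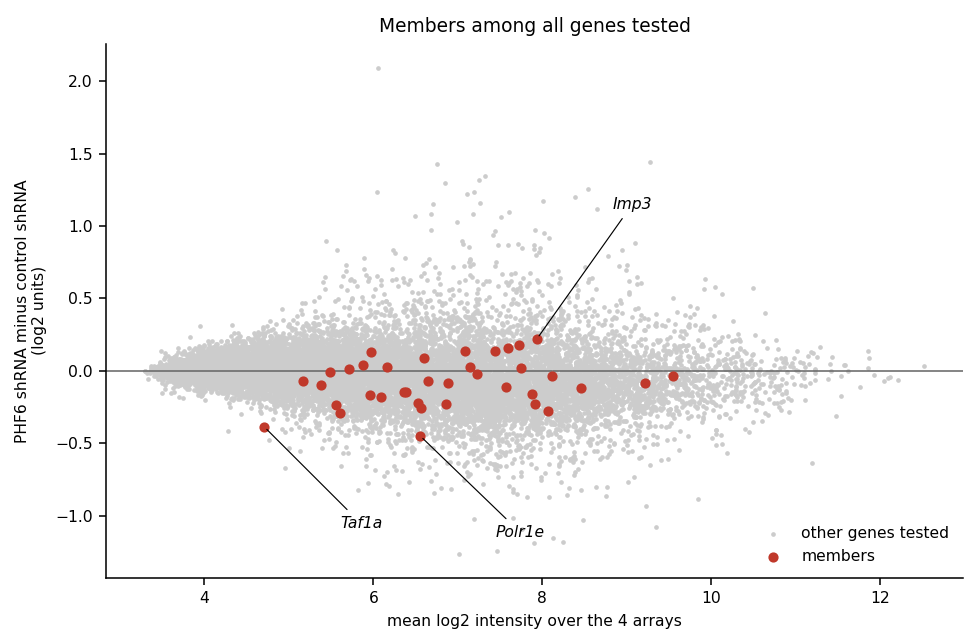
Each point is 1 of the 17245 genes tested, with its mean log2 intensity on the x axis and its PHF6 shRNA minus control shRNA difference in log2 units on the y axis, and the 37 members are in red. The members lie inside the cloud of other genes, between -0.45 (Polr1e) and 0.22 (Imp3).

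Bright genes in general read lower in the PHF6 shRNA arrays. With the genes ranked by mean reading and cut into 4 equal groups, the brightest group had a median difference of -0.08 log2 units with 66.0% lower, and the 13 members in it had -0.04 with 8 lower. In the next group all genes had -0.03 with 57.2% lower, and 18 members had -0.08 with 11 lower. In the one below that, all genes had 0.02 with 43.5% lower, and the 6 members in it were all lower, with a median of -0.17. The dimmest group held none of the members. The part of brightness in the members' values was not tested.

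Other genes of ribosome production were taken from lists written by hand. Of 196 measured in all, 0 had an adjusted p under 0.05, and 21 (10.7%) had an unadjusted p under 0.05, beside 10.8% of all genes. The 35 other genes of the small subunit processome read lower in 27, with a median of -0.16 log2 units. Of them, 8 (22.9%) had an unadjusted p under 0.05, beside 10.8% of all genes. Lower among these were 7, where the share of all genes is 7.52%. Above background on at least 2 arrays were 30 of the 35, and of all such genes 17.2% had an unadjusted p under 0.05. The median of the 35 was -0.04 with PHF6 shRNA duplicate 1 left out and -0.10 with control duplicate 2 left out. Rrp7a read 221 and 218 in the PHF6 shRNA arrays, against 283 and 281 in the control arrays, at -0.36 ± 0.08 (limma adjusted p = 0.25). Emg1, a pseudouridine methyltransferase of 18S rRNA, and Utp11 differed by -0.34 ± 0.09 and -0.46 ± 0.12. Utp15, named after its value was seen, gave the lowest value of these lists at -0.77 ± 0.23, from 36.8 and 59.9 with PHF6 shRNA against 77.5 and 82.8 with control shRNA.

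The lists for later and parallel steps also had negative medians. Of 41 other large subunit assembly genes 30 were lower, with a median of -0.05 that was -0.02 with PHF6 shRNA duplicate 1 left out, 1.85e-05 with control duplicate 2 left out and -0.10 with control duplicate 1 left out. Cyclic loess gave -0.02 and quantile scaling -0.03. The smallest p-values there were those of Rrp1 at -0.30 ± 0.08, Nsa2 at -0.25 ± 0.09 and the helicase Ddx24 at -0.24 ± 0.08. Of 14 exosome and rRNA trimming genes 10 were lower, Exosc2 at -0.28 ± 0.09, and the median of -0.13 was -0.02 with control duplicate 2 left out, -0.05 with PHF6 shRNA duplicate 1 left out, -0.23 with control duplicate 1 left out and -0.08 under cyclic loess. Of 16 genes for Pol III and 5S rRNA 13 were lower, and the median of -0.07 was -0.02 with control duplicate 2 left out, -0.12 with PHF6 shRNA duplicate 2 left out and -0.16 with control duplicate 1 left out. Both cyclic loess and quantile scaling gave -0.04 for it. Among the 6 other measured Pol I and shared subunits, Polr2h, a subunit of all the nuclear polymerases, read 209 and 217 in the PHF6 shRNA arrays, against 289 and 273 in the control arrays, at -0.40 ± 0.09 (limma adjusted p = 0.24). Polr1g, the partner of Polr1e, was below background on all 4 arrays. The 6 had a median of -0.01, which was positive under cyclic loess (0.05), quantile scaling (0.04) and with PHF6 shRNA duplicate 1 (0.06) or control duplicate 2 (0.11) left out, and -0.11 with either of the other arrays left out.

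Ribosomal protein genes read on the other side of 0. Of 33 large subunit proteins 24 were higher, and their median of 0.05 was 0.10 under cyclic loess and 0.09 under quantile scaling. With 1 array left out it lay between 0.01 (control duplicate 1) and 0.12 (control duplicate 2), at 0.02 for PHF6 shRNA duplicate 2 and 0.09 for PHF6 shRNA duplicate 1. Rpl18 read 1379.6 and 1386 with PHF6 shRNA, against 1147 and 1232 with control shRNA (0.22 ± 0.09, limma adjusted p = 0.45), and the stalk protein gene Rplp0 differed by 0.24 ± 0.12. Of 22 small subunit proteins 13 were higher, and their median of 0.04 was -0.02 with PHF6 shRNA duplicate 2 left out and -0.03 with control duplicate 1 left out, against 0.07 with PHF6 shRNA duplicate 1 and 0.06 with control duplicate 2 left out. It was 0.02 among genes above background, 0.10 under cyclic loess and 0.09 under quantile scaling, and Rps9 differed by -0.32 ± 0.11. Ribosomal protein genes have many near-identical copies in rodent genomes, so these probe sets may read more than 1 of them. The difference between these lists and the module was not tested.

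Regulators of rDNA chromatin held both directions, 11 lower and 8 higher of 19. Suv39h1, a histone methyltransferase of silent chromatin, read 75.9 and 83.9 in the PHF6 shRNA arrays, against 64.2 and 58.1 in the control arrays (0.39 ± 0.10, limma adjusted p = 0.30). Ercc6, the CSB repair ATPase, and Baz2a, the TIP5 subunit of the complex that silences rDNA, differed by -0.47 ± 0.14 and -0.24 ± 0.08. The list median was -0.04 and turned to 0.02 and 0.03 under quantile and cyclic loess scaling and to 0.05 with control duplicate 2 left out. It was -0.12 with control duplicate 1 left out, -0.08 with PHF6 shRNA duplicate 2 left out and -0.02 with PHF6 shRNA duplicate 1 left out. Of 10 measured p53 targets, which rise when nucleolar stress stabilises p53, 6 were higher and 4 lower with a median of 0.04. It was -0.04 with PHF6 shRNA duplicate 1 left out, 0.01 with PHF6 shRNA duplicate 2, 0.0020 with control duplicate 1 and 0.07 with control duplicate 2 left out, and 0.09 and 0.08 under cyclic loess and quantile scaling. Tp53inp1 stood at 0.82 ± 0.15 (limma adjusted p = 0.24) and Zmat3 at -0.33 ± 0.09.

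**Figure D4:**
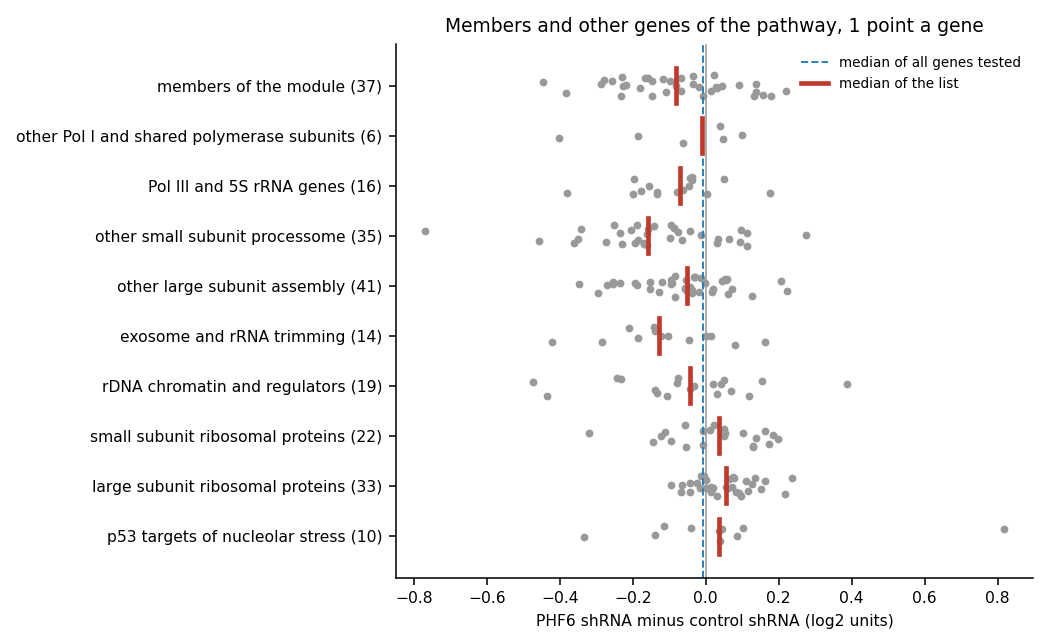
Each grey point is the PHF6 shRNA minus control shRNA difference of 1 gene in log2 units, each red bar the median of its list, with the number of measured genes in brackets, and the dashed line the median of all genes tested. The bar stands at -0.08 for the module, at -0.16 for the other small subunit processome genes and at 0.05 for the large subunit ribosomal proteins.

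Markers of dividing cells, which make many ribosomes, differed more between duplicates than between groups. The 9 measured cycling genes summed to 482 and 949.8 intensity units in the PHF6 shRNA arrays and to 563 and 929 in the control arrays, and 9 of 9 read higher on the duplicate numbered 2 in both groups, by medians of 0.88 log2 units with PHF6 shRNA and 0.62 with control shRNA. All 9 were above background on at least 2 arrays, and 7 of 9 were lower with PHF6 shRNA, with a median of -0.12 log2 units. With PHF6 shRNA duplicate 1 left out that median was 0.32, with PHF6 shRNA duplicate 2 left out -0.56, with control duplicate 1 left out -0.42 and with control duplicate 2 left out 0.15. Mki67, the proliferation antigen, read 60.7 and 236 with PHF6 shRNA, against 108 and 205 with control shRNA. Of the 37 members, 21 were higher on the duplicate numbered 2 in both groups, and the members had medians of 0.09 log2 units with PHF6 shRNA and 0.12 with control shRNA. The same held for 5575 of all 17245 genes, and for 4626 of the 10367 above background on at least 2 arrays. Those 10367 had medians of 0.03 and 0.08. The part of dividing cells in the members' values was not tested.

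Of 8 neuronal markers 7 read lower and the median was -0.15 log2 units, with the neurofilament gene Nefl at -0.65 ± 0.21, and summed to 10755 and 11079 with PHF6 shRNA and to 12107 and 12156 with control shRNA. The medians of the markers of neuron types lay on the other side of 0. Of 6 excitatory genes 4 read higher, with a median of 0.04, and of 7 GABAergic genes 6, with a median of 0.11. With PHF6 shRNA duplicate 1 left out those medians were -0.02 and -0.0036, and with control duplicate 2 left out -0.0064 and -0.03. Single excitatory genes did not all go that way, and the lowest difference among the 6 was -0.69. Of the excitatory genes 1 had an unadjusted limma p under 0.05, and it was lower. Of the GABAergic genes 1 had such a p, and it was higher. All 6 measured astrocyte genes read higher and their median was 0.13. They summed to 757 and 1256 with PHF6 shRNA and to 542 and 1046 with control shRNA, and the glutamate transporter gene Slc1a2 stood at 0.98 ± 0.20. That median was -0.18 with PHF6 shRNA duplicate 2 left out and -0.19 with control duplicate 1 left out, and 0.52 and 0.43 with PHF6 shRNA duplicate 1 or control duplicate 2 left out. The 5 progenitor genes had a median of 0.06 that was -0.20 with PHF6 shRNA duplicate 2 left out and -0.10 with control duplicate 1 left out, against 0.33 with PHF6 shRNA duplicate 1 and 0.23 with control duplicate 2 left out. They summed to 1527 and 3049 with PHF6 shRNA and to 1486 and 2387 with control shRNA. Their part in the members' values was not tested.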

How the data were processed

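The submitters' processing notes name RMA as the method by which the authors made the deposited probe set intensities. This method subtracts background, equalises the distributions of the arrays and combines probes. The sources used here do not give its version. The deposited intensities are on a linear scale (8.57 to 6121), so log2 was taken. Of 29214 rows, 18644 carry 1 gene symbol, 962 several and 9608 none. Symbols were updated through the gene identifier for 18460 rows (RefSeq, GRCr8). The probe set with the highest mean was used for the 879 genes with several. The PHF6 shRNA minus control shRNA difference was tested 2-sided by limma 3.58.1 (lmFit and eBayes under R 4.3.3) without filter or covariate. P-values were adjusted by Benjamini-Hochberg over 17245 genes, with a threshold of 0.05. An exact test of 1 value cannot go below p = 0.333 here. On simulated data with the real means and 17245 genes, the fit recovered 98.2% of 2-fold changes in genes above background, with 17.6 false calls a run. The simulated spread of each gene was the fit's own estimate, already smoothed across genes, so that share need not hold on the real arrays. On those, 0 genes passed the unpaired test, although the widest difference was 4.25-fold. Changes as small as those of the members were not simulated. At most 11 values were identical between any arrays.

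The members and lists were chosen with earlier results of these data known. Steps were assigned by hand. By rule, the 12 members of smallest p, Polr1a, Ubtf, Fbl, Ncl and Npm1 are given array by array, and up to 3 genes of each other list by smallest p. Further genes, the promoters and the motifs were added after their values were seen. A member counts as reversed under an alternative only where its difference was at least its SE. Alternatives were a replicate block, each array left out, quantile, cyclic loess and median scaling, a background filter, the mean of probe sets, a variance trend and log2(intensity + 16).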

Additional observations from a re-analysis of the deposited data

How the results depend on the processing

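Under 12 alternatives, the member median stayed negative, between -0.16 and -0.03 log2 units, and 21 to 29 members were lower. The member median minus that of all genes ran from -0.16 without control duplicate 1 to -0.01 without PHF6 shRNA duplicate 1. Without PHF6 shRNA duplicate 1, 21 of 37 members were lower, beside 55.4% of all genes. Without control duplicate 2, 21 were lower, beside 54.7%, and the medians differed by -0.02. Of the 21 members whose difference was larger than its SE, 1 changed sign: Gnl3 stood at 0.0081 without control duplicate 2, in a leave-one-out range of -0.52 to 0.0081. Of the 16 others, 12 changed sign in at least 1 alternative. The descriptions of both groups end in exp-1 and exp-2, and no label says whether these numbers mark an experiment that pairs the arrays. The duplicate 2 minus duplicate 1 differences of both groups correlated across all genes (r = 0.57) and across the 37 members (r = 0.20, a description across genes, which are not replicates). With the duplicate number as a replicate block, 909 of 17245 genes passed the adjusted threshold, in place of 0. Of the 37 members 1 passed, Polr1e (-0.45 log2 units, limma adjusted p = 0.021, against 0.33 without the block). Its difference ran from -0.57 to -0.33 over the alternatives. Leaving out each array in turn gave 0 to 90 genes past the threshold, 90 when PHF6 shRNA duplicate 2 was left out and 2 when PHF6 shRNA duplicate 1 was, and 0 members in each. The cause was not tested. The lone array of a group is there assumed to vary like the other pair. Of the list medians recomputed, 250 stayed within the spread between duplicates and 49 moved by more. The share lower among genes with an unadjusted p under 0.05 was 69.7%, but 58.0% under quantile scaling and 53.5% under cyclic loess, and 51.5% without control duplicate 2. Members below background have only a bound on their change.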

Other observations

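The probe set shared by Rrn3, the Pol I initiation factor, and Ntan1 read 384 and 396 intensity units in the PHF6 shRNA arrays, against 471 and 440 in the control arrays, a difference of -0.22 log2 units that cannot be assigned to 1 of the 2 genes. It was in no comparison.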
